A study of Homo sapiens with 9 samples.

Results

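KIT, MYB, CD34, MEIS1 and HHEX, 5 genes that mark or regulate blood progenitor cells, were examined in lists of open chromatin from K562 cells with and without a truncating mutation of STAG2. The 5 genes were given by name, with earlier results of these data known, and are 5 of 19748 protein-coding genes. A peak was assigned to a gene when its centre fell between 100 kb before and 100 kb after the gene's ends (its window) on the GRCh37 build. The 9 lists held 1350 such peaks among 2164004 on chromosomes 1 to 22 and X.

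K562 is an erythroleukaemia cell line derived from chronic myeloid leukaemia, here obtained from ATCC. STAG2 is an X-linked subunit of cohesin, the ring complex that holds DNA loops and sister chromatids together. Wild type libraries came from the original cells without a STAG2 mutation, and the other libraries from cells that carried the nonsense mutation R614* in the heterozygous or the homozygous state, introduced with CRISPR-Cas9. Each genotype was 1 line, so the genotype and the line cannot be told apart. The homozygous cells grew attached to the dish and were detached with trypsin, so that attachment and the homozygous genotype cannot be told apart either. There were 3 libraries of 50000 cells for each genotype, and open chromatin was measured by ATAC-seq, in which a transposase cuts and tags accessible DNA. The question that the design poses is how accessibility differs between the 3 genotypes.

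KIT is the receptor tyrosine kinase for stem cell factor and signals through adaptor proteins, phosphatases and STAT factors. MYB is a transcription factor that keeps progenitors dividing, and its distal enhancers lie on the side of HBS1L, in the HBS1L-MYB intergenic region, where GATA1, TAL1 and KLF1 bind in erythroid cells. MEIS1 is a homeodomain factor that binds DNA with PBX and HOX partners, HHEX is a homeodomain repressor of early haematopoietic and endothelial cells, and CD34 is a sialomucin of the surface of haematopoietic stem cells. All are generally lowered as blood cells mature.

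The gene body of KIT (ENSG00000157404) lies at chr4:55523434-55606949 on the plus strand, with no other protein-coding gene in its window. MYB (ENSG00000118513) lies at chr6:135502446-135540311 on the plus strand, and its window reaches into HBS1L and AHI1. CD34 (ENSG00000174059) lies at chr1:208054317-208084747 on the minus strand, with CD46 and the microRNA host transcript MIR29B2CHG in its window. MEIS1 (ENSG00000143995) lies at chr2:66660584-66801001 on the plus strand, alone in its window. HHEX (ENSG00000152804) lies at chr10:94449712-94455404 on the plus strand, with KIF11 in its window. Sites are named below by the gene and the distance in kb from its first annotated start site to the centre of the site, with a minus sign for upstream.

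The sequences shown first are those of the sites on which the comparisons turn: sites where the homozygous libraries had no strong peak or a weak one, and the exonic promoter site of KIT. Each is 300 bases around the median centre of the strong intervals at the site, GRCh37, plus strand. They are chr6:135439317-135439616 for MYB -63.1 and chr6:135431340-135431639 for MYB -71.1, both between HBS1L and MYB. They are chr1:208035234-208035533 for CD34 +49.3 and chr1:208037266-208037565 for CD34 +47.3, both in introns of MIR29B2CHG. They are chr2:66723237-66723536 for MEIS1 +60.9, at an exon of MEIS1, chr10:94350502-94350801 for HHEX -99.1, in an intron of KIF11, and chr4:55524839-55525138 for KIT +1.8, at an exon of KIT. Exon and intron labels are those of the centre of each whole site. At MEIS1 +60.9 and KIT +1.8 that centre lies outside the 300 bases shown. MYB -71.1 and MEIS1 +60.9 were picked after their values had been seen. Capitals mark matches, on either strand, to the letters of 7 motifs that were searched: AGATAA or TGATAA for GATA factors, TGANTCA for AP-1, TGTGGT for RUNX, CCGGAA for ETS, TAACNG for MYB, and by name the CTCF motif and the GATA motif with an E-box.
MYB -63.1: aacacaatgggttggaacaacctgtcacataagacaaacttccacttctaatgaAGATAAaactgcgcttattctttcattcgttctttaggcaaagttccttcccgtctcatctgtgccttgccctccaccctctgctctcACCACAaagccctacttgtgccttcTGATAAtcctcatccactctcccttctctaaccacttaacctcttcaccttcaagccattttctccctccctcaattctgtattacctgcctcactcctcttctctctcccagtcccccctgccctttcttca
MYB -71.1: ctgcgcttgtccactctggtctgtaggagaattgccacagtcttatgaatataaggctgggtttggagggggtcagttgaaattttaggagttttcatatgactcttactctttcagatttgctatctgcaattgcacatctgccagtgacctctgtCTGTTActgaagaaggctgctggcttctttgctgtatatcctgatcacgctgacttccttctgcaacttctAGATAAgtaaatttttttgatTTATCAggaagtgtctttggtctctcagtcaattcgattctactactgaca
CD34 +49.3: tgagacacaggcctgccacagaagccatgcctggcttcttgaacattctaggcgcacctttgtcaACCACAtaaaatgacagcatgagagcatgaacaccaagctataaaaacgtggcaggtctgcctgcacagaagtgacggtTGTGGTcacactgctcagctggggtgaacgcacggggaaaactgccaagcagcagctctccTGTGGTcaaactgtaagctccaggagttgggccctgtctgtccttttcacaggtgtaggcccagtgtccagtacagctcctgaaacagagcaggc
CD34 +47.3: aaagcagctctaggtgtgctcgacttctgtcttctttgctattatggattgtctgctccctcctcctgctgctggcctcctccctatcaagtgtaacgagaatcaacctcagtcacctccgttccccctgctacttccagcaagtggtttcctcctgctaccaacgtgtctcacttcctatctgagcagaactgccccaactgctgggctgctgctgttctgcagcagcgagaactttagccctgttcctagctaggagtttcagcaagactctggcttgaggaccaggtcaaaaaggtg
MEIS1 +60.9: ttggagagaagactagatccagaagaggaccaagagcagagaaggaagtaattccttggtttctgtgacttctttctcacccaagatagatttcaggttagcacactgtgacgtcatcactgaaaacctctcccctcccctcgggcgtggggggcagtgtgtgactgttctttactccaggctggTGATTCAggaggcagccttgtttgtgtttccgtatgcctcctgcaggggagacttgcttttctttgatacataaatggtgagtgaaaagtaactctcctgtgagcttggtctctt
HHEX -99.1: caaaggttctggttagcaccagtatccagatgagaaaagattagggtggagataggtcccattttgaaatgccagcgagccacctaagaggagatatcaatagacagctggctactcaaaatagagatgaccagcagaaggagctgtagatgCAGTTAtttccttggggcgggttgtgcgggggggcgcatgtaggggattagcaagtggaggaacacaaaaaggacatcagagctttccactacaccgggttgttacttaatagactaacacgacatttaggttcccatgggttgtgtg
KIT +1.8: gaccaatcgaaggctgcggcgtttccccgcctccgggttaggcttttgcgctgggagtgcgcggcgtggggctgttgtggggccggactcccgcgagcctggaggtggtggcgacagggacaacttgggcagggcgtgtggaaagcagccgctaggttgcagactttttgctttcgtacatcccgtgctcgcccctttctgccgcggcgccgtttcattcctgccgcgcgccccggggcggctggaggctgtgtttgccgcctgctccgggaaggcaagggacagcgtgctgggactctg

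MYB -63.1 holds 2 GATA matches and 1 RUNX match, and MYB -71.1 holds 2 GATA matches and 1 MYB match. In windows placed the same way, at least 2 GATA matches stood in 7.47% of all regions and in 9 of the 89 sites of the 5 genes. CD34 +49.3 holds 3 RUNX matches, which 0.379% of all regions hold in such windows. MEIS1 +60.9 holds 1 AP-1 match and HHEX -99.1 1 MYB match, while CD34 +47.3 and KIT +1.8 hold no match to these letters. Over all 89 sites, GATA letters were found in 27% of 300-base windows, against 30.9% of all regions, RUNX letters in 25.8% against 22.8%, and MYB letters in 30.3% against 24.4%. AP-1 letters were found in 19.1% against 17.9%, ETS letters in 5.62% against 6.75%, the CTCF motif in 5.62% against 7.23%, and the GATA motif with an E-box in 0% against 1.94%. A match is a description of the letters and not a bound site. The median GC content was 48.3% in the sites and 49% in all regions, and ranged by gene from 43.2% at MYB to 52% at CD34.

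A strong peak is one of the 50000 peaks of a library with the highest -log10 p, and its percentile is its rank among them, with 100 the strongest and 0 for no strong peak. The lists held 181579 to 319986 peaks, and the -log10 p at rank 50000 ranged from 4.95 in homozygous replicate 2 to 6.73 in homozygous replicate 3. Read counts are not part of these lists, and library depth is therefore unknown. Wild type replicate 3 and heterozygous replicate 1 had 46% of intervals of the shorter list in common with identical ends, and 58 of 165 at the 5 genes. Wild type replicates 1 and 2 had 23.2% in common, and 21 of 138 at the 5 genes. Heterozygous replicates 2 and 3 had 1.17% in common, and the other 33 pairs 0.223% to 0.351%. These 9 libraries are therefore not shown to be 9 separate samples, and nothing says that replicates came from separate cultures, so the p-values measure only the spread between these lists. Among erythroid K562 markers, TAL1, HBG1, HBG2 and LMO2 had a strong promoter peak in 9 of 9 libraries, EPOR in 7, and GATA1 and KLF1 in 0. The 4 B cell markers were at 0 in 9 of 9 libraries, of 4 T cell markers 2 to 3 per library had a strong promoter peak, of 4 fibroblast markers 2 to 3 did, and of 3 monocyte markers 0 to 1 did, with like ranges in the 3 genotypes. The part of other cells in the results was not tested.

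MYB had fewer strong peaks in every homozygous library than in any wild type library, and MEIS1 had fewer listed peaks per 100000 in every homozygous library than in any of the other 6. The strong peak counts of KIT, CD34 and HHEX overlapped between wild type and homozygous libraries. None of the 5 genes passed the test across all genes. Differences between genotypes were tested by an exact permutation test over the 280 ways to assign 9 libraries to 3 genotypes, whose smallest p is 0.00357, with Benjamini-Hochberg adjustment over all genes. For strong peaks, 17.5% of 19673 genes had an unadjusted exact permutation p under 0.05 and 0% passed after adjustment. All homozygous counts lay below the other 6 libraries at 1098 of these genes, and MYB was not among them. The share of genes with homozygous counts below the wild type ones alone is not given here. The lowest adjusted value depends on how many genes share the smallest p, so not passing does not show that a gene is unchanged.

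The MYB window had 12, 12 and 11 strong peaks in wild type replicates 1, 2 and 3, 11, 9 and 12 in heterozygous and 6, 9 and 7 in homozygous ones. The wild type and homozygous counts did not overlap, and the lowest heterozygous count equalled the highest homozygous one. The means were 11.7 ± 0.577 (SD, n = 3), 10.7 ± 1.53 and 7.33 ± 1.53, and the exact permutation p over the 3 genotypes was 0.05 (adjusted 0.277). Without wild type replicate 3 and heterozygous replicate 1, whose lists share intervals, the homozygous minus wild type difference was -4.67 instead of -4.33 (exact permutation p = 0.114, adjusted 0.392). Per 100 strong peaks in the 1 Mb on each side, MYB had 33.3, 27.9 and 21.6 in wild type and 17.6, 24.3 and 16.3 in homozygous libraries. These values overlapped (exact permutation p over the 3 genotypes = 0.161, adjusted 0.479), in a comparison added after the data were seen. The fewer strong peaks in homozygous libraries were spread over the window: the 100 kb upstream had 6.33, 6.67 and 4.67 strong peaks on average in the order wild type, heterozygous and homozygous, the gene body 2, 1 and 0.667, and the 100 kb downstream 3.33, 3 and 2. The difference was -2 with the 20000 highest peaks and 0 with the full lists. Over all listed peaks the MYB window did not show this order, with 12.9 ± 1.71, 15.4 ± 1.62 and 15.3 ± 1.85 (SD, n = 3) per 100000 listed peaks, exact permutation p = 0.225 (adjusted 0.299).

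At MEIS1, the homozygous libraries had the fewest listed peaks. MEIS1 had 15.7, 15.1 and 18.1 listed peaks per 100000 in wild type replicates 1, 2 and 3, 18.5, 23.4 and 21 in heterozygous and 8.27, 9.08 and 10.6 in homozygous ones. All 3 homozygous values lay below the other 6. The means were 16.3 ± 1.56 (SD, n = 3), 21 ± 2.46 and 9.33 ± 1.2, and the exact permutation p was 0.00357, the smallest possible, but 0.0511 after adjustment over 19744 genes. As the smallest p gives the lowest adjusted value, no gene was below 0.0511 in this measure. Every gene at that p shared it, among them STAT5B and MEIS2, so the adjusted test could not set MEIS1 apart from them. In this measure 49.7% of genes had an unadjusted exact permutation p under 0.05, 0% passed after adjustment, and 5.78% had all homozygous values below the other 6. Higher homozygous than wild type means were more frequent in it. They were found at 8367 genes with an unadjusted exact permutation p over the 3 genotypes under 0.05, against 1439 with lower ones. The median gene was 2.4 peaks per 100000 higher in homozygous than in wild type libraries. MEIS1 thus differed in the less frequent direction. Without the pair of lists that share intervals, its difference was -6.09 instead of -6.98 (exact permutation p = 0.00952, adjusted 0.0795). The peak counts of MEIS1 before scaling were 35, 46 and 52, then 47, 46 and 42, then 15, 18 and 34. Among strong peaks the MEIS1 counts overlapped, with 10, 8 and 11 in the wild type, 9, 9 and 10 in the heterozygous and 5, 7 and 9 in the homozygous libraries (exact permutation p = 0.164, adjusted 0.439). The difference was -2.67, and -7 with the 100000 highest peaks (exact permutation p = 0.0321, adjusted 0.188).

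The lower MEIS1 count extended beyond the gene. In the 1 Mb on each side of the window, listed peaks per 100000 were 86 ± 11.8 (SD, n = 3) in the wild type, 88.5 ± 8.25 in the heterozygous and 42.5 ± 4.31 in the homozygous libraries, and strong peaks 36.3 ± 0.577, 34 ± 2 and 21 ± 1.73. Per 100 listed peaks of these flanks, the MEIS1 window had 19.1 ± 1.33, 23.9 ± 3.7 and 22 ± 1.75 (SD, n = 3), exact permutation p = 0.136 (adjusted 0.368), a comparison added after the data were seen. Set against its flanks, the MEIS1 window was thus not lower in the homozygous libraries. In steps of 1 Mb, the homozygous mean was 0.521, 0.445 and 0.43 of the wild type mean in the 3 consecutive steps that begin 1 Mb before the MEIS1 start site, and 1.23 and 1.31 of it in the steps before and after them. DNA copy number of the lines was not analysed here, and its part in these values was not tested.

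At KIT the listed peaks were not fewer in homozygous libraries. KIT had 3.59, 3.62 and 7.65 listed peaks per 100000 in the wild type, 8.27, 6.11 and 6 in the heterozygous and 7.72, 7.06 and 10.6 in the homozygous libraries. The means of 4.95 ± 2.34 (SD, n = 3), 6.8 ± 1.28 and 8.47 ± 1.9 came from overlapping groups, with an exact permutation p of 0.164 (adjusted 0.235). Wild type replicate 3 and heterozygous replicate 1, the lists that share intervals, were both high at KIT. In the 1 Mb on each side of the KIT window the listed peaks per 100000 were 43.7 ± 4.02, 47.5 ± 4.37 and 76.6 ± 8.6 (SD, n = 3), and the homozygous to wild type ratio in the 4 steps of 1 Mb around the start site ran from 1.34 to 1.89. Strong peaks in the KIT window numbered 4, 4 and 2 in the wild type, 3, 6 and 5 in the heterozygous and 3, 5 and 6 in the homozygous libraries, and the groups overlapped (exact permutation p = 0.457, adjusted 0.717). With the 100000 highest peaks, the homozygous minus wild type difference at KIT was 6 instead of 1.33 (exact permutation p = 0.0214, adjusted 0.188).

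CD34 had the most strong peaks of the 5 genes, with 22, 21 and 19 in the wild type, 19, 17 and 17 in the heterozygous and 21, 14 and 18 in the homozygous libraries. The homozygous counts at CD34 overlapped those of both other genotypes (exact permutation p = 0.332, adjusted 0.612). The listed peaks of CD34 per 100000 were 18.9 ± 4.71, 22.4 ± 4.41 and 21.7 ± 6.71 (SD, n = 3), exact permutation p = 0.696 (adjusted 0.737). HHEX had 7, 6 and 6 strong peaks in the wild type, 6, 9 and 7 in the heterozygous and 6, 5 and 4 in the homozygous libraries (exact permutation p = 0.121, adjusted 0.392). HHEX listed peaks per 100000 were 4.73 ± 0.58, 6.25 ± 0.993 and 6.07 ± 0.862 (SD, n = 3). The lowest homozygous value, 5.51, lay just above the highest wild type one, 5.38, and the heterozygous values of 5.12 to 7 spanned the gap (exact permutation p = 0.121, adjusted 0.187). High homozygous values were frequent in this measure, and lay above the other 6 libraries at 7526 of 19744 genes. The homozygous minus wild type difference of 1.34 at HHEX was below the median of 2.4 over all genes.

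**Figure D1:**
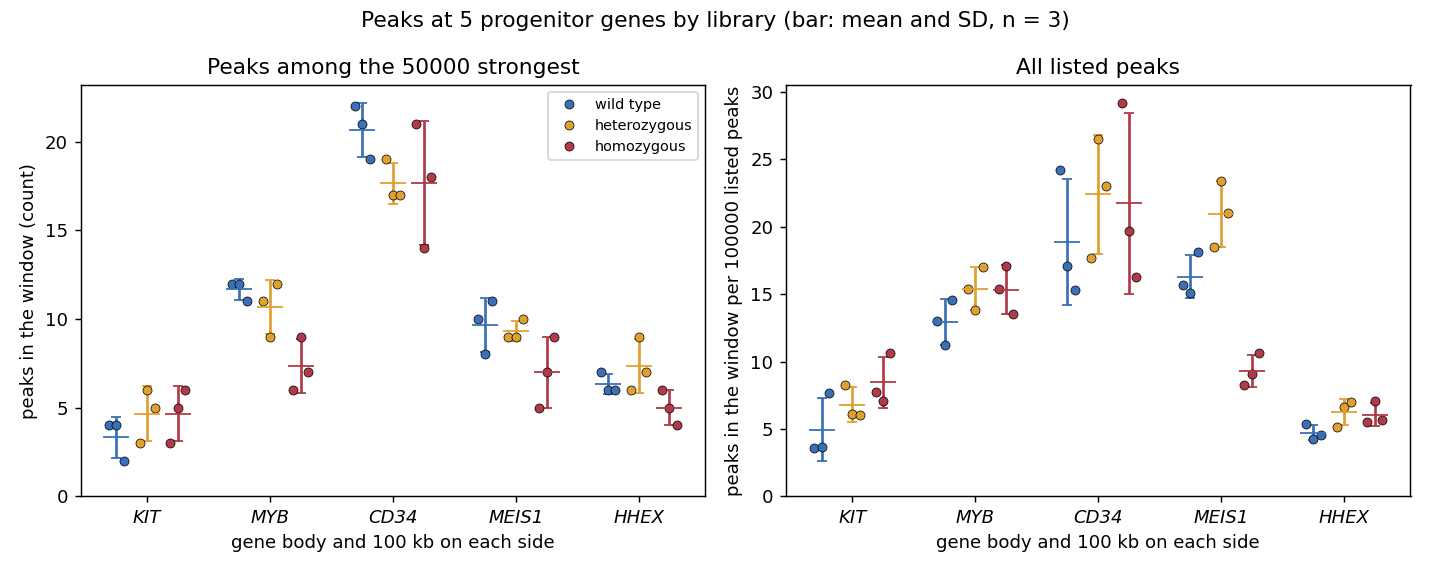
Number of peaks whose centre lies in the window of each gene, as strong peaks (left, count) and as all listed peaks per 100000 (right), one point per library with the mean and SD of 3. The homozygous points are below all others for MEIS1 on the right (8.27 to 10.6), and below all wild type points for MYB on the left (6 to 9 against 11 to 12).

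**Figure D2:**
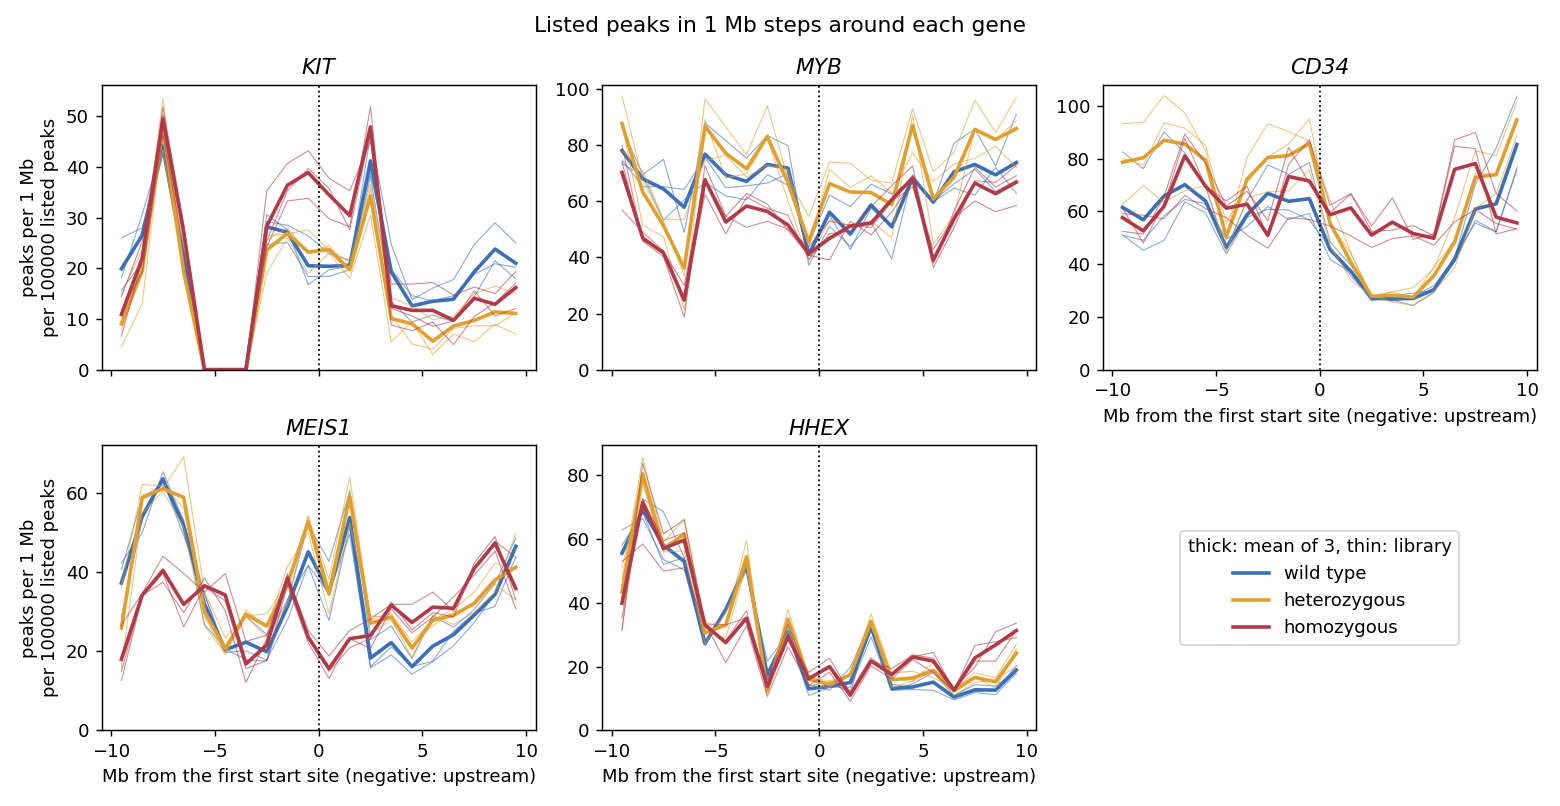
Listed peaks in steps of 1 Mb, per 100000 listed peaks of the library, against the distance in Mb from the first start site of the gene (negative upstream), with a thin line for each library and a thick line for each genotype mean. At MEIS1 the homozygous lines dip below all others in the 3 steps around the gene, and at KIT they run above all others in the 4 steps around it.

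The neighbourhoods of the other genes varied as well. Over the genome, 27.6% of 2882 steps of 1 Mb had all homozygous values above the other 6 libraries and 14.9% had them below. Of 20 such steps around CD34, 6 were above and 2 below, and the homozygous to wild type ratio reached 2.09 in the step that begins 3 Mb downstream of its start site. MYB had 6 steps with all homozygous values below the others and 0 above, but neither step that touches its start site was among them. HHEX had 2 steps below and 5 above, and MEIS1 6 below and 5 above. KIT had 0 below and 5 above.

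Promoter accessibility was compared as the percentile of the best strong peak within 1 kb of a start site. Of 14000 genes with a strong promoter peak in some library, 13.5% had an unadjusted exact permutation p under 0.05 and 0% passed after adjustment. The MYB promoter had percentiles of 47.1, 42.9 and 60 in the wild type, 60.5, 88.3 and 81.5 in the heterozygous and 47.6, 40.8 and 30 in the homozygous libraries. The 3 heterozygous values were the highest 3 of the 9, with a narrow gap between heterozygous replicate 1 and wild type replicate 3, the pair of lists that share intervals. The means were 50 ± 8.93, 76.8 ± 14.5 and 39.5 ± 8.85 (SD, n = 3), exact permutation p = 0.0143 (adjusted 0.304). Without that pair the p was 0.0476 (exact permutation, adjusted 0.342). The KIT promoter was also highest in heterozygous replicates 2 and 3, with percentiles of 49.3, 73.5 and 41.5 in the wild type, 41.3, 84 and 78.5 in the heterozygous and 48.7, 20.8 and 2.48 in the homozygous libraries. Homozygous replicates 2 and 3 were the lowest of the 9 at KIT, while homozygous replicate 1 lay among the wild type values (exact permutation p = 0.121, adjusted 0.477).

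The CD34 promoter had no strong peak in 9 of 9 libraries. The highest -log10 p of a listed peak there was 4.8, 4 and 3.3 in the wild type, 3.9, 4.2 and 5.3 in the heterozygous and 2.5, 0 and 6.3 in the homozygous libraries, where 0 means that no peak was listed. The peaks of the CD34 window were thus away from its own start. The MEIS1 promoter had percentiles of 33.9, 45.6 and 75.1 in the wild type, 32.2, 51.2 and 52.7 in the heterozygous and 46.3, 91.4 and 70.7 in the homozygous libraries, so the lower peak count of the MEIS1 window was not accompanied by a lower promoter (exact permutation p = 0.357, adjusted 0.672). The homozygous minus wild type difference of the MEIS1 promoter was 17.9 percentiles, and 52.2 when peaks were ranked by fold enrichment (exact permutation p = 0.0357, adjusted 0.471). The HHEX promoter had 14.9, 0 and 25.5, then 23.4, 66 and 24.5, then 14.9, 44.9 and 0, with overlap between all genotypes (exact permutation p = 0.361, adjusted 0.674).

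Merging the strong peaks of the 9 libraries wherever they overlapped by at least 1 bp gave 105878 regions, of which 89 belonged to the 5 genes: 8 to KIT, 24 to MYB, 30 to CD34, 18 to MEIS1 and 9 to HHEX. Of these sites 44 lay in introns, 10 at other exonic positions, 27 between genes and 8 at a start site of a protein-coding gene, of which 5 were the start of the gene itself. A strong peak in all 9 libraries was found at 22 of the 89 sites (24.7%, against 18.2% of all regions) and in 1 library alone at 23 (25.8%, against 30.3%). By gene, sites present in all 9 libraries numbered 11 of 30 at CD34, 4 of 18 at MEIS1, 3 of 9 at HHEX, 2 of 8 at KIT and 2 of 24 at MYB. MYB had the lowest share of such sites among the 5 genes.

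The sites that separate homozygous from wild type libraries, with a strong peak in 3 of 3 libraries of one genotype and 0 of 3 of the other, were MYB -63.1, CD34 +49.3, CD34 +47.3 and HHEX -99.1, all present in wild type. These are 4 of 80 sites present in either genotype, against 3.46% of all regions. No site was present in homozygous libraries alone, against 2.7% of all regions. With libraries left out, the rule asks fewer libraries and can only keep or add sites, so the counts that follow could not fall. The share of all regions under such a looser rule is not given here. The count of separating sites was 8 without wild type replicate 3, also 8 when heterozygous replicate 1 was left out with it, and 7 without homozygous replicate 3. Between heterozygous and wild type libraries 0 of 76 sites separated, against 0.393% of regions present in heterozygous libraries only and 0.504% present in wild type only. Leaving out wild type replicate 3 raised that count to 5 and leaving out heterozygous replicate 1 to 4. It was 2 when heterozygous replicate 2 was left out, 1 when wild type replicate 2 was, and 9 when both lists of the pair that share intervals were.

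Between homozygous and heterozygous libraries 2 of 81 sites separated, MYB -63.1 and CD34 +49.3, both present in heterozygous libraries, against 3.41% of regions in that direction and 3.16% in the other. Here too, the counts with libraries left out could not fall. Leaving out heterozygous replicate 1 gave 5 such sites, leaving out wild type replicate 3 with it also gave 5, and leaving out either heterozygous replicate 3 or homozygous replicate 2 gave 4. The same 2 of 89 sites had a strong peak in the 6 other libraries and in 0 of 3 homozygous ones, against 1.56% of all regions, and 0 had the reverse, against 1.8%. Without heterozygous replicate 3 the sites of either kind numbered 4. In the full lists, none of the 4 sites that separate homozygous from wild type was missing from every homozygous library, so that each was weaker there rather than unlisted throughout.

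Site percentiles were tested over all 105878 regions, of which 10.6% had an unadjusted exact permutation p under 0.05 and 0% passed after adjustment. Of the 89 sites 8 had such a p (8.99%). The homozygous mean was lower than the wild type mean at 41 of the 89 sites and higher at 39. Over all regions it was lower at 44942 and higher at 50368. All homozygous values lay below the other 6 at 6 sites (6.74%, against 4.44% of regions) and above them at 0 (against 4.81%). The 6 sites were MYB -96.8, MYB -63.1, CD34 +82.7, CD34 +49.3, CD34 +35.1 and MEIS1 +60.9. By rule 12 sites are named: the promoter of each gene that has one, its strongest site away from a start, and the sites that separate genotypes. They are KIT -85.6 and +1.8, MYB -63.1 and -0.2, CD34 +49.3, +47.3 and -70.8, MEIS1 -0.2 and +46.2, and HHEX -99.1, -0.2 and +31.8. The other sites described were singled out after their values had been seen.

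Between HBS1L and MYB, the site MYB -63.1 (chr6:135438936-135439798), whose sequence with 2 GATA matches is given above, was strong in every wild type and heterozygous library and in no homozygous one. Its percentiles were 65.3, 7.75 and 77.5 in the wild type, 69, 75.5 and 58.5 in the heterozygous and 0, 0 and 0 in the homozygous libraries. Wild type replicate 2 stood far below the other 5. The -log10 p of the listed peak was 2.9 in homozygous replicate 1 and 6.5 in homozygous replicate 3, and no peak was listed in homozygous replicate 2, while wild type replicate 2 had 6.5 too. Homozygous replicate 3 was thus as high in -log10 p as the lowest wild type library, in a list with a higher threshold. The exact permutation p for MYB -63.1 was 0.0464 (adjusted 0.437), and 0.0762 (adjusted 0.449) without the pair of lists that share intervals.

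The neighbouring site MYB -71.1 (chr6:135430929-135431748), with 2 GATA matches and 1 MYB match in the sequence above, had percentiles of 55.5, 50.6 and 38.1 in the wild type, 76.6, 0 and 0 in the heterozygous and 18.9, 0 and 0 in the homozygous libraries. Here heterozygous replicates 2 and 3 resembled the homozygous libraries, and heterozygous replicate 1 was above all wild type values (exact permutation p = 0.229, adjusted 0.681). MYB -84.1 (chr6:135417873-135418902), in an intron of HBS1L, had 50.3, 37.4 and 27.6, then 36.2, 53.6 and 34.2, then 0, 18.7 and 36, and its groups overlapped (exact permutation p = 0.168, adjusted 0.681). MYB -96.8 (chr6:135405080-135406226), in another HBS1L intron, had 61.6, 46.2 and 61.3, then 62, 65.9 and 47.8, then 34.1, 44.6 and 5.43. All 3 homozygous values at MYB -96.8 were the lowest of the 9, with a narrow margin for homozygous replicate 2 (exact permutation p = 0.0429, adjusted 0.416). MYB -96.8 lies 3.21 kb inside the edge of the window, and the next site outside, 7.19 kb beyond that edge, had a difference of -31.6 percentiles between homozygous and wild type means, beside -28.4 at MYB -96.8. On the other side of MYB, in AHI1, MYB +118.2 had 55.5, 38.1 and 57.8 in the wild type, 54, 0 and 4.07 in the heterozygous and 0, 0 and 48.1 in the homozygous libraries, and its groups overlapped (exact permutation p = 0.239, adjusted 0.681).

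**Figure D3:**
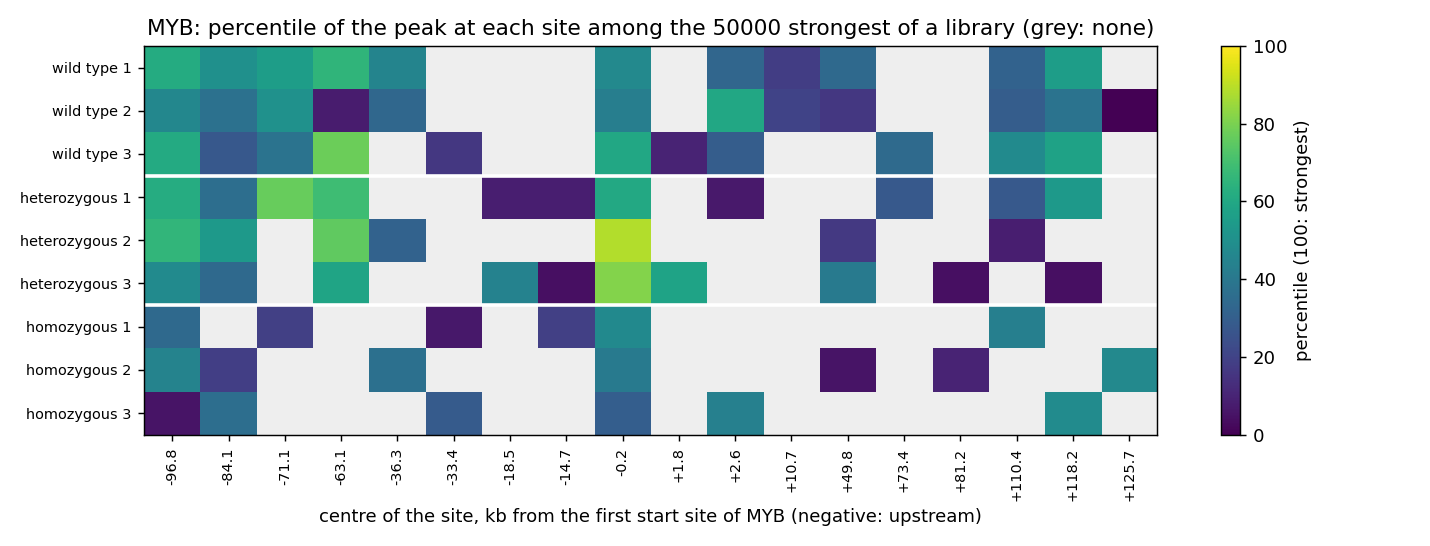
Percentile of the strong peak at each MYB site found in at least 2 libraries (columns, by distance in kb from the first MYB start site) in each library (rows), with grey where there was none. The site at -63.1 kb is coloured in all wild type and heterozygous rows and grey in the 3 homozygous rows, while the promoter at -0.2 kb is coloured in every row and highest in heterozygous replicates 2 and 3.

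The CD34 sites with the lowest values in all 3 homozygous libraries lay downstream of the gene, in introns of MIR29B2CHG. CD34 +49.3 (chr1:208035113-208035723), with 3 RUNX matches, had percentiles of 19.1, 27.3 and 74.3 in the wild type, 78, 30.1 and 43.8 in the heterozygous and 0 in all 3 homozygous libraries. In the full lists only homozygous replicate 2 had a peak there, at a -log10 p of 2.3 (exact permutation p of the percentiles 0.0821, adjusted 0.565). CD34 +47.3 (chr1:208037122-208037713) had 38.4, 10.4 and 26.6 in the wild type, 22.4, 37.9 and 0 in the heterozygous and 0 in all 3 homozygous libraries (exact permutation p = 0.143, adjusted 0.681). CD34 +35.1 (chr1:208049426-208049951) had 91, 89.6 and 69.2 in the wild type, 67.6, 65.4 and 63.4 in the heterozygous and 60.5, 0 and 2.11 in the homozygous libraries. The 3 genotypes did not overlap at CD34 +35.1, with wild type highest and homozygous lowest, and with the smallest possible exact permutation p of 0.00357 (adjusted 0.374). The gap between wild type and heterozygous values was narrow. It lay between wild type replicate 3 (69.2) and heterozygous replicate 1 (67.6), the pair of lists that share intervals. The share of all regions with the 3 genotypes apart is not given here. Homozygous replicate 1 lay close to the heterozygous values there.

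CD34 +82.7 (chr1:208001751-208002356) was strong in every library, with 93.2, 93.8 and 88 in the wild type, 82.4, 91.2 and 93.3 in the heterozygous and 74.8, 78.5 and 73.7 in the homozygous libraries, the last lowest (exact permutation p = 0.0214, adjusted 0.374). CD34 +99.4 had 83.7, 87 and 79.6 in wild type but 73.6, 0 and 18.1 in homozygous libraries, with 75.2, 53.5 and 73.6 in heterozygous ones (exact permutation p = 0.0429, adjusted 0.416). The region was not lower throughout: CD34 +88.6 had means of 77 ± 3.67, 62.4 ± 20.9 and 78 ± 3.75 (SD, n = 3). Upstream of CD34, 5 of 7 sites were strong in all 9 libraries. The strongest, CD34 -70.8 (chr1:208155268-208155808), had means of 90.1 ± 6.68, 96.5 ± 1.04 and 91.5 ± 4.74 (SD, n = 3), and CD34 -23.9 had 93.1 ± 5.37, 90.2 ± 3.56 and 92.9 ± 2.42. CD34 -12.1 had 66.3 ± 14, 64.2 ± 13.1 and 81.3 ± 19.1, within the spread of the libraries (exact permutation p = 0.386, adjusted 0.907).

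**Figure D4:**
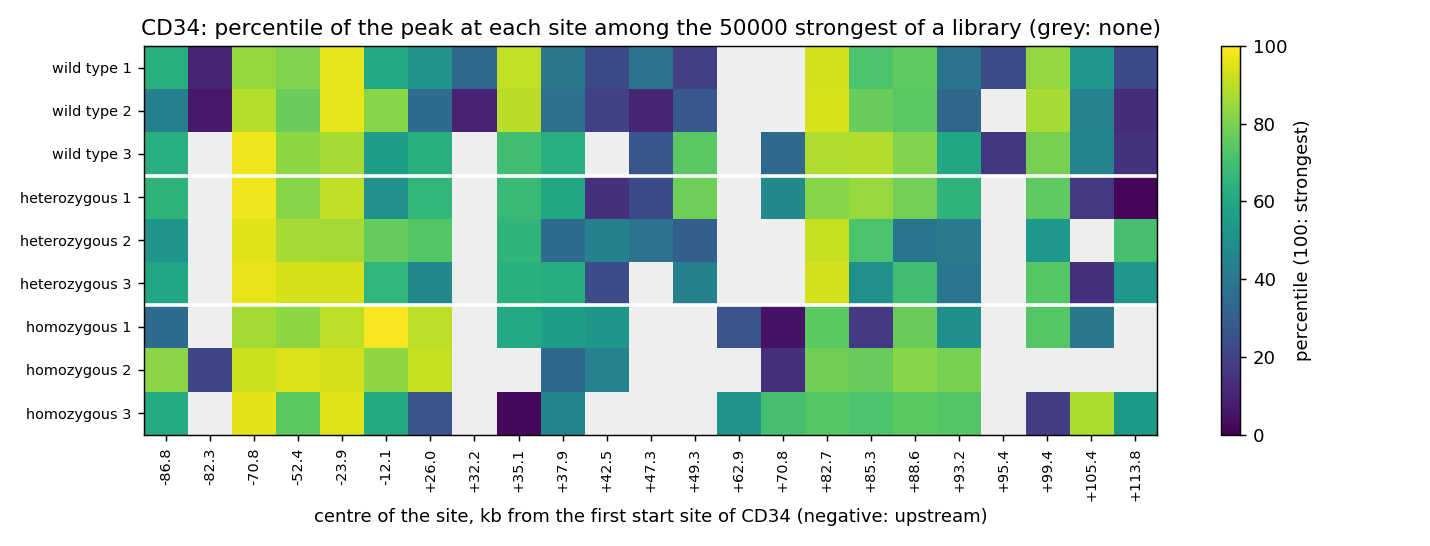
Percentile of the strong peak at each CD34 site found in at least 2 libraries (columns, by distance in kb from the first CD34 start site, positive downstream) in each library (rows), with grey where there was none. The sites at +47.3 and +49.3 kb are grey in the 3 homozygous rows, and those at -23.9, -52.4 and -70.8 kb are coloured in all 9 rows.

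At MEIS1 the site +60.9 (chr2:66722676-66723673), which overlaps an exon of the gene and whose sequence holds 1 AP-1 match, had percentiles of 46.2, 73.3 and 68.7 in the wild type, 92.7, 83 and 91.6 in the heterozygous and 0, 28.1 and 21.3 in the homozygous libraries. The 3 genotypes did not overlap, with heterozygous libraries highest and homozygous lowest, and the share of all regions with such a separation is not given here. The means were 62.8 ± 14.5, 89.1 ± 5.33 and 16.4 ± 14.6 (SD, n = 3), with the smallest possible exact permutation p of 0.00357 (adjusted 0.374). The strongest MEIS1 site away from a start, MEIS1 +46.2 (chr2:66707999-66708885), did not show this, with 79.9, 84.7 and 79.3, then 80.4, 62.5 and 81.7, then 75.3, 75 and 87.2 (exact permutation p = 0.668, adjusted 1). MEIS1 +91.3 and MEIS1 +30.2, in introns, were strong mainly in heterozygous replicates 2 and 3, at 45.1 and 61.5 and at 65.5 and 58.4, with 0 in heterozygous replicate 1 at both.

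The site HHEX -99.1 (chr10:94350392-94350925), in an intron of KIF11 and within 1 kb of a KIF11 start site, had 59.4, 36.7 and 33.6 in the wild type, 25.5, 3.56 and 0 in the heterozygous and 0 in all 3 homozygous libraries. All wild type values lay above the other 6 (exact permutation p = 0.0143, adjusted 0.374), and the share of all regions with this order is not given here. The lowest wild type and the highest other value came from the pair of lists that share intervals. Without that pair, homozygous minus wild type was -48 (exact permutation p = 0.0381, adjusted 0.417). With such lists counted as 1 source, homozygous minus the other sources was -20.3 (exact permutation p = 0.257, adjusted 0.724). KIF11 encodes a mitotic kinesin, and 2 further sites at exons lie at its start. HHEX -98.2 had means of 37.3 ± 22.7, 23.3 ± 25.7 and 23.8 ± 24.5 (SD, n = 3), with wild type highest as at HHEX -99.1 (exact permutation p = 0.721, adjusted 1). HHEX -96.8 had 33 ± 9.43, 47.5 ± 12 and 57.2 ± 14.1 (SD, n = 3), with homozygous highest (exact permutation p = 0.118, adjusted 0.672). HHEX -99.1 lies 0.947 kb inside the edge of the window, and the next site outside the edge, 15.7 kb away from it, was 29.9 percentiles higher in homozygous than in wild type libraries. The strongest HHEX site away from a start, HHEX +31.8 (chr10:94481240-94481746), had 74.4 ± 13.7, 75.1 ± 9.77 and 82.8 ± 10.8 (exact permutation p = 0.629, adjusted 1).

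KIT had the fewest sites, and 4 of its 8 were strong in 1 library only. The site KIT -85.6 (chr4:55437302-55438343), upstream of the gene, was among the strongest peaks everywhere, with 90.1, 99.3 and 85.5 in the wild type, 87.5, 73.5 and 91.1 in the heterozygous and 89.1, 89.7 and 96.9 in the homozygous libraries (exact permutation p = 0.421, adjusted 0.961). The promoter site KIT +1.8 (chr4:55524503-55525916) varied more, and its values were those of the KIT promoter given above.

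**Figure D5:**
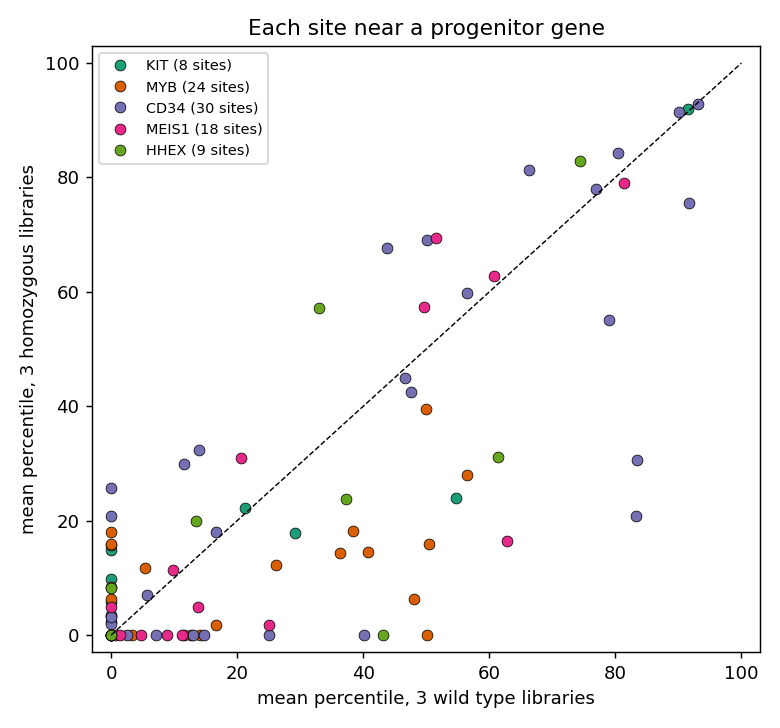
Mean percentile of each of the 89 sites in the 3 wild type libraries (horizontal) against the 3 homozygous libraries (vertical), coloured by gene, with the dashed line of equal values. The points on the horizontal axis include MYB -63.1 (50.2 against 0), CD34 +49.3 (40.2 against 0) and HHEX -99.1 (43.2 against 0), and the sites near the upper right corner include KIT -85.6 and CD34 -70.8.

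The genes around these 5 in their pathways were described by lists. Of 16 genes of KIT signalling, 5 had an unadjusted exact permutation p under 0.05 for strong peaks and a higher homozygous than wild type mean. With a lower homozygous mean there were 0, and after adjustment 0 of either kind. The test covers the 3 genotypes together and does not compare homozygous with wild type libraries alone. The 5 genes were the adaptor SHC1, the ubiquitin ligase CBL, the inhibitory adaptor SH2B3, the phosphatase PTPN6 and the transcription factor STAT5B. CBL had 13, 13 and 13 strong peaks in the wild type, 11, 11 and 9 in the heterozygous and 17, 13 and 16 in the homozygous libraries. Homozygous replicate 2 thus equalled the wild type at CBL, and the heterozygous libraries were lowest. SH2B3 had 3, 2 and 3 strong peaks in the wild type, 3, 2 and 3 in the heterozygous and 5, 6 and 5 in the homozygous libraries. The SH2B3 promoter percentile was 70.7 ± 4.65, 66.5 ± 1.11 and 86.6 ± 4.07 (SD, n = 3), with the smallest possible exact permutation p of 0.00357 (adjusted 0.294). It was the 1 promoter of the 16 with an unadjusted exact permutation p under 0.05, against 13.5% of all promoters tested. The median difference of the KIT list was 0.833 strong peaks, against 0.333 over 19673 genes. Of these genes, 2079 had a higher and 1332 a lower homozygous mean at an unadjusted exact permutation p under 0.05 for strong peaks.

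By the same rule, with direction from homozygous minus wild type means, 1 of 8 MYB family members and coactivators was lower and 1 higher. The lower one, HBS1L, shares the enhancer region with MYB. Its window had 13, 13 and 15 strong peaks in the wild type, 15, 12 and 16 in the heterozygous and 7, 8 and 9 in the homozygous libraries (unadjusted exact permutation p = 0.0321). The homozygous counts lay below the other 6, as at 1098 of 19673 genes. The windows of HBS1L and MYB overlap and count the same peaks between the genes, so HBS1L is not a separate observation. The HBS1L promoter was at 87.3 ± 4.85, 78.1 ± 15.6 and 92.1 ± 1.48 (SD, n = 3). The higher one was CREBBP, an acetyltransferase that MYB recruits, with 2 ± 1, 2.67 ± 0.577 and 5 ± 0. Of 10 MEIS, PBX and HOX partners, PKNOX2 was lower, at 20 ± 1.73, 17.3 ± 1.15 and 14.3 ± 1.53 strong peaks, and MEIS3 and PBX2 were higher. The CD34 relatives PODXL and PODXL2 had an unadjusted p above 0.05, with PODXL at 8 ± 2, 5.33 ± 1.15 and 9.67 ± 1.53. Of 19 stem and progenitor regulators, GFI1B and IKZF1 were lower and RUNX1 higher. RUNX1, a core factor of haematopoietic stem cell emergence, had 14, 16 and 16 strong peaks in the wild type, 16, 13 and 12 in the heterozygous and 19, 29 and 25 in the homozygous libraries (unadjusted exact permutation p = 0.0143). IKZF1, the Ikaros factor, had 15.3 ± 0.577, 14.7 ± 3.06 and 10.3 ± 0.577 (SD, n = 3). The median differences were 0.833 strong peaks for the MYB list, 0.833 for the MEIS, PBX and HOX list, 1.17 for the CD34 relatives and 0.667 for the regulators, and 0 genes of these lists passed after adjustment.

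The genes on other chromosomes whose strong peak counts followed those of a member most closely over the 9 libraries were LRRC9 (Pearson r = 0.972) and SLC22A5 (0.971) for MYB, and DBX1 (0.971) and NID2 (0.954) for MEIS1. They were GPKOW (0.949) and WDR45 (0.939) for KIT, UTP14C (0.965) and PGAP4 (0.961) for CD34, and CETN3 (0.966) and LCLAT1 (0.962) for HHEX. These are the highest of 11766 to 12857 candidates per member and describe these libraries only.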

How the data were processed

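ATAC-seq peak lists of 9 K562 libraries were used as deposited. The submitters' processing notes name cutadapt, Bowtie2 2.2.9, Picard, MACS2 2.1.0 and the build hg19 (GRCh37), with no role or order; which step removed duplicates or shifted reads is not given in the sources used here. The authors' narrowPeak files, per the labels 1 for each library, give each interval a score, a fold enrichment (ratio), and −log10 p and −log10 q values. These deposited −log10 p, −log10 q, fold and score values are the authors' own for each peak and were used only to rank peaks within a list. Of the deposited intervals 17.2% to 19.2% were longer than 500 bp, and nearly all others were 500 bp. Printed sequences and motif counts use the median of interval centres over libraries.

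Strong peaks were the 50000 with the highest −log10 p on chromosomes 1 to 22 and X. Genes came from GENCODE 44 on GRCh37, and sequences from that genome. Regions were merged by 1 bp of overlap and checked with bedtools 2.31.1. Tests were exact permutation tests over 280 assignments of 9 libraries, two-sided in that any order of genotypes counts, with Benjamini-Hochberg adjustment over all genes or regions (Python 3.11.15, numpy 2.4.6, pandas 2.3.3). The test was tried on simulated counts drawn independently for each library. Those counts lacked the shared intervals of these lists, and percentiles and scaled counts were not simulated. An exact permutation test of 3 against 3 libraries cannot go below p = 0.1 and was not used. The members and lists were chosen with earlier results of these data known. Sites were named by rule: the promoter, the strongest site away from a start, and every site that separates genotypes, 12 in all; others were chosen after their values were seen. A marker of the K562 list is not reported here. Alternatives were lists of other lengths, ranking by fold, other windows, libraries left out, the replicate block, and lists that share intervals counted as 1 source (7 sources, of which the 3 homozygous were compared with the other 4).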

Additional observations from a re-analysis of the deposited data

How the results depend on the processing

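No value of a member passed the adjusted exact permutation test under any alternative run, and the lowest adjusted exact permutation p was 0.174 for strong peaks (95 alternatives over the 5 genes), 0.0509 for listed peaks (70), 0.278 for promoters (64) and 0.297 for the named sites (190). The direction between homozygous and wild type was kept in 88, 65, 58 and 172 of these. The difference was exactly 0 for strong peaks at MYB with the full lists and at CD34 with the 20000 highest, and for the HHEX promoter and its site with the 20000 highest. With the 20000 highest peaks the difference in strong peaks was -0.333 at KIT and 0.333 at MEIS1, with the full lists 1.33 at HHEX and with a window of 10 kb 0.333 at HHEX. Per 100 peaks in the 1 Mb flanks, an alternative chosen after seeing the data, it was 6.83 for strong peaks at MEIS1, and for listed peaks 2.91 at MEIS1, -0.0834 at KIT, -1.01 at CD34 and -0.161 at HHEX. The promoter difference of HHEX was -1.46 with the full lists and -10.6 with lists that share intervals counted as 1 source, and that of MYB was 3.36 when ranked by fold enrichment; the sites HHEX -0.2 and MYB -0.2 gave the same values. At KIT -85.6 the difference was -0.405 with the full lists, -0.293 by fold and -2.76 without wild type replicate 3 and heterozygous replicate 1. At CD34 -70.8 it was -0.167 with the full lists and -2.47 with 7 sources, and at MEIS1 +46.2 it was 1.33 by fold and 2.56 with 7 sources. The cause of these reversals was not tested.

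Leaving out each library in turn, the difference ranged from 0.667 to 2.17 strong peaks at KIT, -5.17 to -3.67 at MYB, -4.67 to -1.17 at CD34, -3.67 to -1.67 at MEIS1 and -1.83 to -0.833 at HHEX. For listed peaks it ranged from -7.63 to -6.09 at MEIS1 and from -0.909 (without homozygous replicate 1) to 5.57 at CD34. For the HHEX promoter and its site -0.2 it ranged from -6.0 (without homozygous replicate 2) to 16.5, and was -0.24 when wild type replicate 2 was left out. For KIT -85.6 it ranged from -2.76 (wild type replicate 3 left out) to 4.11, with -0.481 when wild type replicate 1 and -2.2 when homozygous replicate 3 was left out. For CD34 -70.8 it ranged from -1.52 (wild type replicate 1 left out) to 5.05, with -0.819 when homozygous replicate 3 was left out. Sites that separate homozygous from wild type ranged from 4 to 8, heterozygous from wild type 0 to 5, homozygous from heterozygous 2 to 5, and sites either missing from the homozygous libraries alone or present in them alone 2 to 4. Leaving out a library cannot lower these site counts, because the rule then asks fewer libraries.

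Sites that separate homozygous from wild type numbered 0 with the 20000 highest, 0 when absence from the full list was required and 8 without wild type replicate 3 and heterozygous replicate 1. Heterozygous from wild type numbered 1 with the 100000 highest, 3 with the full lists, 1 ranked by fold and 9 without those 2 libraries. Homozygous from heterozygous numbered 6 with the 100000 highest, 10 with the full lists, 0 when absence was required and 5 without those 2 libraries. Sites missing from the homozygous libraries alone or present in them alone, of which the 2 reported are all of the first kind, numbered 0 with the 20000 highest, 4 with the 100000 highest and 0 when absence was required.

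With the replicate block (36 assignments, smallest exact permutation p 0.0278) the MEIS1 listed peaks had p = 0.0278 (adjusted 0.173), and the MYB strong peaks a difference of -4.33 with p = 0.167 (adjusted 0.546). No value of a member had passed before, so the block had no call to remove. With its smallest p, a new call would need a large share of all genes at that p. Replicate numbers did not pair the samples. Between libraries of different genotypes, same-numbered pairs correlated at -0.305 to 0.178 and other pairs at -0.315 to 0.414. Of 9 libraries, 4 correlated best with their own number. For each library the values against another genotype balanced out, so they do not measure how alike whole libraries were. The value of 0.414 was that of wild type replicate 3 and heterozygous replicate 1, whose lists share intervals. Depth is unknown, so weaker and absent peaks cannot be told apart by counts.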

Other observations

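The full lists gave a wider set of sites than the strong peaks. When the full lists of the 9 libraries were merged, the 5 genes had 333 sites of 738271, of which 62 were listed in all 9 libraries (18.6%, against 7.15% of all) and 111 in 1 library (33.3%, against 43.2%). Listed in 3 of 3 wild type and 0 of 3 homozygous libraries were CD34 +14, MEIS1 -73.0, MEIS1 -5.9 and HHEX -45.2 (1.2%, against 2.12% of all). MEIS1 -5.9 had a −log10 p of 4, 4.1 and 7.9 in wild type, 8.4, 3.8 and 0 in heterozygous and 0 in all 3 homozygous libraries. KIT +31.2 and CD34 +112.4 were listed in the 3 homozygous libraries only (0.601%, against 0.638%), and KIT +31.2 had a −log10 p of 4, 7 and 3.8 there. CD34 +1.4, just inside the gene, was listed in the 3 heterozygous libraries only, at 3.9, 4.2 and 5.3, and was the 1 site listed in heterozygous but not in wild type libraries (0.3%, against 0.115%). MYB -52.0 and CD34 +22.7 were listed in the 3 wild type and in 0 of 3 heterozygous libraries (0.601%, against 0.627%). These counts have no test.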
